A study of Mus musculus with 5 samples.

Results

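The genes described here are the proneural basic helix-loop-helix (bHLH) genes Atoh1, Neurog1, Neurog2, Ptf1a, Neurod1, Neurod2 and Neurod6, together with the related Olig1 and Olig2, which makes 9 of the 21938 protein-coding genes in the annotation used. They were taken by name. For each gene, the peaks of 4 deposited ChIP-seq lists that lay in the gene body or within 10 kb of it were read for position, width, rank and agreement between tumors. A total of 38 peaks lay in these windows, of which 18 came within 1000 bp of the transcription start site (TSS) of the gene. At least 1 peak was found for 7 genes, and Neurod6 and Ptf1a had 0 in all 4 lists.

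Proneural proteins switch progenitors of the nervous system toward a neuronal fate. They bind the E-box, written CANNTG, as dimers with the broadly expressed E proteins, and they are held back by Id proteins, which capture E proteins, and by Hes and Hey repressors downstream of Notch. In the developing cerebellum Atoh1 marks the rhombic lip, from which granule neurons come, and Ptf1a marks the ventricular zone, from which GABAergic neurons come. Gfi1 is a zinc finger repressor that brings the histone demethylase Lsd1 to DNA.

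MG tumors are mouse medulloblastomas grown in NSG mice from cerebellar stem cells of C57BL/6 pups aged 5 to 7 days. The stem cells were sorted as Prominin1-positive and lineage-negative and received Myc, in a stabilized mutant form, and Gfi1 by retrovirus, so that the level of Gfi1 in these tumors is that of a viral construct and not of the endogenous gene. Tumors 39 and 41 each gave a Gfi1 library and an Lsd1 library, made with 4 ug of antibody, and there was no tumor without Gfi1 among them. The input sample is described as a pool of Myc/Gfi1b tumors and was not analysed here. The 4 lists held 25078 to 36836 peaks, the shortest being that of Gfi1 in tumor 41, and 54.3% to 65% of protein-coding genes were marked at a TSS. The study lists more mapped reads for Gfi1 in tumor 41 than in tumor 39, and more for Lsd1 in tumor 39 than in tumor 41, so for each factor the list from the library with more reads was the shorter. The lists give no read counts, so the depth behind a single peak is unknown. A peak shows where the protein was recovered with DNA and is not a measure of expression, and in bulk tumor tissue occupancy in fewer cells cannot be told apart from less occupancy per cell. With 2 libraries against 2, the smallest two-sided p of an exact permutation test would be 0.333, and no test between libraries was run. Counts are instead read beside the share of all protein-coding genes that met the same rule.

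Gfi1 was at the start sites of most of these genes in tumor 39 and of few in tumor 41. A peak at the TSS was found in the Gfi1 list of tumor 39 for 7 of the 9 genes (77.8%), against 65% of protein-coding genes. In tumor 41 the Gfi1 list had such a peak for 1 gene, Neurog2 (11.1%), against 54.3%. The Lsd1 list of tumor 39 had 3 (33.3%, Neurog1, Neurog2 and Neurod1) against 58.5%, and that of tumor 41 had 6 (66.7%, the 7 genes of the first list without Olig1) against 61.7%. For each factor the longer list held more of these genes, which was that of tumor 39 for Gfi1 and of tumor 41 for Lsd1. Counting any peak within 10 kb of the gene body in place of TSS peaks gave 7, 2, 4 and 6 genes in the same order of lists, against 72.2%, 63.4%, 66.7% and 69.1% of protein-coding genes.

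A TSS peak in both tumors was less common in this group than over all protein-coding genes. Gfi1 was at the TSS in both tumors for 1 gene, whereas 53.9% of protein-coding genes met that rule. For Lsd1 the number was 3, against 57.7%. Neurog2 was the single gene with a peak at the TSS in all 4 lists, against 53.1% of protein-coding genes. A further 6 genes (66.7%) had a TSS peak in 1 to 3 of the lists, which was seen for 13.2% of protein-coding genes, and 2 genes (22.2%) had none in any, against 33.6%. Each of the 9 genes has 1 annotated TSS, whereas many genes have several and so more places at which a peak can be counted. Among the 4882 protein-coding genes with 1 TSS, 36.9%, 25.1%, 29.4% and 32.6% had a TSS peak in the lists in that order, 24.8% in both Gfi1 lists and 28.6% in both Lsd1 lists. In this set 24.2% had it in all 4 lists, 61.7% in none and 14.2% in 1 to 3. Set beside genes of this kind, the shares of the 9 genes were higher in Gfi1 of tumor 39 (77.8%), in Lsd1 of tumor 41 (66.7%) and, by less, in Lsd1 of tumor 39 and in both Lsd1 lists (33.3% each). They were lower in Gfi1 of tumor 41, in both Gfi1 lists and in all 4 lists (11.1% each). The background chosen therefore changed the direction for Lsd1 in both tumors and not for Gfi1 in both tumors. Genes with 1 TSS were not matched to the 9 genes for CpG content, by which shares are given further below. Leaving out the Gfi1 list of tumor 41 raised the number of genes found in all remaining lists from 1 to 3, and leaving out the Lsd1 list of tumor 39 left it at 1.

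**Figure D1:**
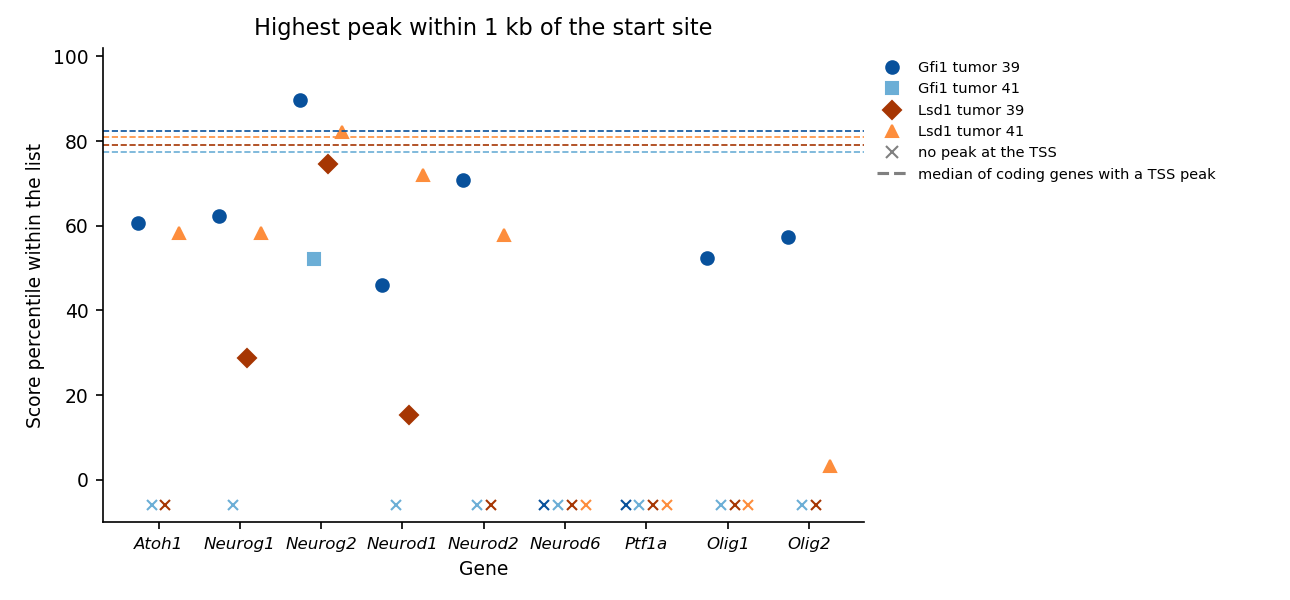
Score percentile within its own list (y axis, 0 to 100) of the highest peak within 1000 bp of the TSS, for the 9 bHLH genes (x axis) in the 4 libraries, with crosses below 0 for libraries without such a peak and dashed lines at the median of protein-coding genes that have one (77.4 to 82.5). Neurog2 alone has 4 points, Neurod6 and Ptf1a have 4 crosses each, and 15 of the 17 points lie below the dashed line of their library.

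Neurog2, a determination factor of cortical and sensory neurons, carried the highest ranked peaks of the group. The gene lies at chr3:127633135-127635631 on the plus strand (mm10, ENSMUSG00000027967) and has 2 exons. Its TSS peak was 3756 bp wide at the 89.7 percentile of the Gfi1 list of tumor 39, 1849 bp at the 52.2 percentile for Gfi1 in tumor 41, 2744 bp at the 74.7 percentile for Lsd1 in tumor 39 and 2897 bp at the 82.2 percentile for Lsd1 in tumor 41. The percentile is the rank of the peak's score within its own list, so that 89.7 means that 89.7% of the peaks in that list scored lower. The Gfi1 value of tumor 41 was the lowest of the 4. All 4 peaks covered chr3:127632892-127634740, which is the whole of the narrowest of them and takes in the last bases upstream of the gene, the 5′ UTR, the intron and the coding sequence. In tumor 39 the Gfi1 peak was ranked above the Lsd1 peak, and in tumor 41 the order was the other way round.

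The 300 bases just upstream of Neurog2 are shown because the peaks of all 4 lists reached into them. They lie upstream by the GENCODE start site, while 1 exon of the RefSeq annotation overlaps them. The stretch is chr3:127632835-127633134, read on the plus strand from the GRCm38.p6 assembly of RefSeq, and CG dinucleotides are in capitals.
Neurog2 upstream: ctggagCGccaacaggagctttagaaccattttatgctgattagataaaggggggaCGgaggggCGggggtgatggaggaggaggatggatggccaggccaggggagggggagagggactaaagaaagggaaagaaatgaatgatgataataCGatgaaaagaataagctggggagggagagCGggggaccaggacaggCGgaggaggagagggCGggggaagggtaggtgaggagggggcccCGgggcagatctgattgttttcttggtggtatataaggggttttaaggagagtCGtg
It holds 9 CG dinucleotides, which is also the median of 9 over the same window of all protein-coding genes, and within 500 bp on both sides of the TSS there are 84. No CANNTG occurs in it, counting both strands, while 70.8% of such windows hold at least 1. AATC, the core of the sequence that the zinc fingers of Gfi1 bind, occurs 2 times on either strand, and 76.1% of all upstream windows hold it.

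Away from its start, Neurog2 had a site 6346 bp downstream of the TSS that appeared in 3 lists. It was 1022 bp wide at the 35.8 percentile for Gfi1 in tumor 39, 687 bp at the 1.07 percentile for Lsd1 in tumor 39 and 792 bp at the 16.2 percentile for Lsd1 in tumor 41, all well below the ranks of the TSS peak. A second site, 6543 bp upstream of the TSS, was 1562 bp wide at the 60.4 percentile of the Gfi1 list of tumor 39 and was in no other list. The sequence at the centre of the downstream stretch shared by the 3 lists, chr3:127639827-127640126 on the plus strand of GRCm38.p6, is given with the E-box in capitals.
Neurog2 downstream site: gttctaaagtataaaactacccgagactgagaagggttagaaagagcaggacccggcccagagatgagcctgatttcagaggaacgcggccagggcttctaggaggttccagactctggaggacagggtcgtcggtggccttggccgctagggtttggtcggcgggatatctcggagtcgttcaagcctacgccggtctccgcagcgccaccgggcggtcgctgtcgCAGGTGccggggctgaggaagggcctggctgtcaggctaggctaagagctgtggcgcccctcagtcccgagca
It holds 1 CANNTG and 22 CG dinucleotides. For scale, 81.3% of the central 300 bp windows of the 18181 Gfi1 peaks of tumor 39 that lay over 1000 bp from any TSS held a CANNTG, with a median of 7 CG dinucleotides.

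Atoh1, the determination factor of granule neurons, was found in Gfi1 of tumor 39 and Lsd1 of tumor 41 and in neither of the other lists. The gene is a single exon at chr6:64729125-64731245 on the plus strand (ENSMUSG00000073043). Its TSS peak was 2807 bp wide at the 60.6 percentile for Gfi1 in tumor 39 and 2859 bp wide at the 58.4 percentile for Lsd1 in tumor 41. The peaks shared 2761 bp and both covered the coding sequence whole. The same libraries also had a weaker site downstream of the gene, 5244 bp from the TSS, at the 31 percentile for Gfi1 and the 1.77 percentile for Lsd1, the latter among the lowest scores of its list. Over the whole window 93.1% of the bases in Gfi1 peaks of tumor 39 lay in Lsd1 peaks of tumor 41, and 97.3% the other way, so the 2 libraries marked nearly the same bases although they came from different tumors and different antibodies. The centre of the downstream stretch they shared, chr6:64734642-64734941 on the plus strand of GRCm38.p6, is shown with E-boxes in capitals.
Atoh1 downstream site: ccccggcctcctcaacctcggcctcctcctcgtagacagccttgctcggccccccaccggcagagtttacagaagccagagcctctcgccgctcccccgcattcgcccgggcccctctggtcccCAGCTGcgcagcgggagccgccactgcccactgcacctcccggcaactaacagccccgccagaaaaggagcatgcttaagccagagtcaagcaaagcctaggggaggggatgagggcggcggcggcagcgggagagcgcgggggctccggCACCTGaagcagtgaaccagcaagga
It holds 2 CANNTG, of which 1 reads CAGCTG, and CAGCTG was found in 24.9% of the central windows of Gfi1 peaks away from start sites.

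Neurog1, which is needed for cranial sensory neurons, was found in all lists but that of Gfi1 in tumor 41. This single-exon gene lies at chr13:56250478-56252163 on the minus strand (ENSMUSG00000048904). The TSS peak was 1954 bp wide at the 62.3 percentile for Gfi1 in tumor 39, 1830 bp at the 28.7 percentile for Lsd1 in tumor 39 and 2550 bp at the 58.3 percentile for Lsd1 in tumor 41. The Lsd1 peaks of the tumors covered the same place but differed in rank, tumor 39 being the lower. A small peak of 887 bp lay 6080 bp upstream, at the 8.61 percentile of the Lsd1 list of tumor 41 alone.

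Ptf1a, the determination factor of cerebellar GABAergic neurons and of the exocrine pancreas, had no peak of either factor within 10 kb of its body. The gene lies at chr2:19445663-19447501 on the plus strand (ENSMUSG00000026735). Its TSS has 78 CG dinucleotides within 500 bp on both sides, which is the 81.9 percentile of protein-coding genes. Of the 4387 protein-coding genes in that quintile of CpG content, 85.9% had a TSS peak in all 4 lists and 1.32% had none. The 300 bases upstream, chr2:19445363-19445662 on the plus strand of GRCm38.p6, are shown with CG in capitals to be set beside those of Neurog2.
Ptf1a upstream: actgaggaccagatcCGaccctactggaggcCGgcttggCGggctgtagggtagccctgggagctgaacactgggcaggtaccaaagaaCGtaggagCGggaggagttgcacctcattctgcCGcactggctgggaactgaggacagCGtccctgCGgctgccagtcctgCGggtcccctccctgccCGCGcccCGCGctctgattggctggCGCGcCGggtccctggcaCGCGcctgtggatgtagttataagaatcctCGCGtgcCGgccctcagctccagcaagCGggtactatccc
They hold 22 CG dinucleotides, against 9 upstream of Neurog2, and no CANNTG. The letters AATC occur 2 times, as they do upstream of Neurog2.

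**Figure D2:**
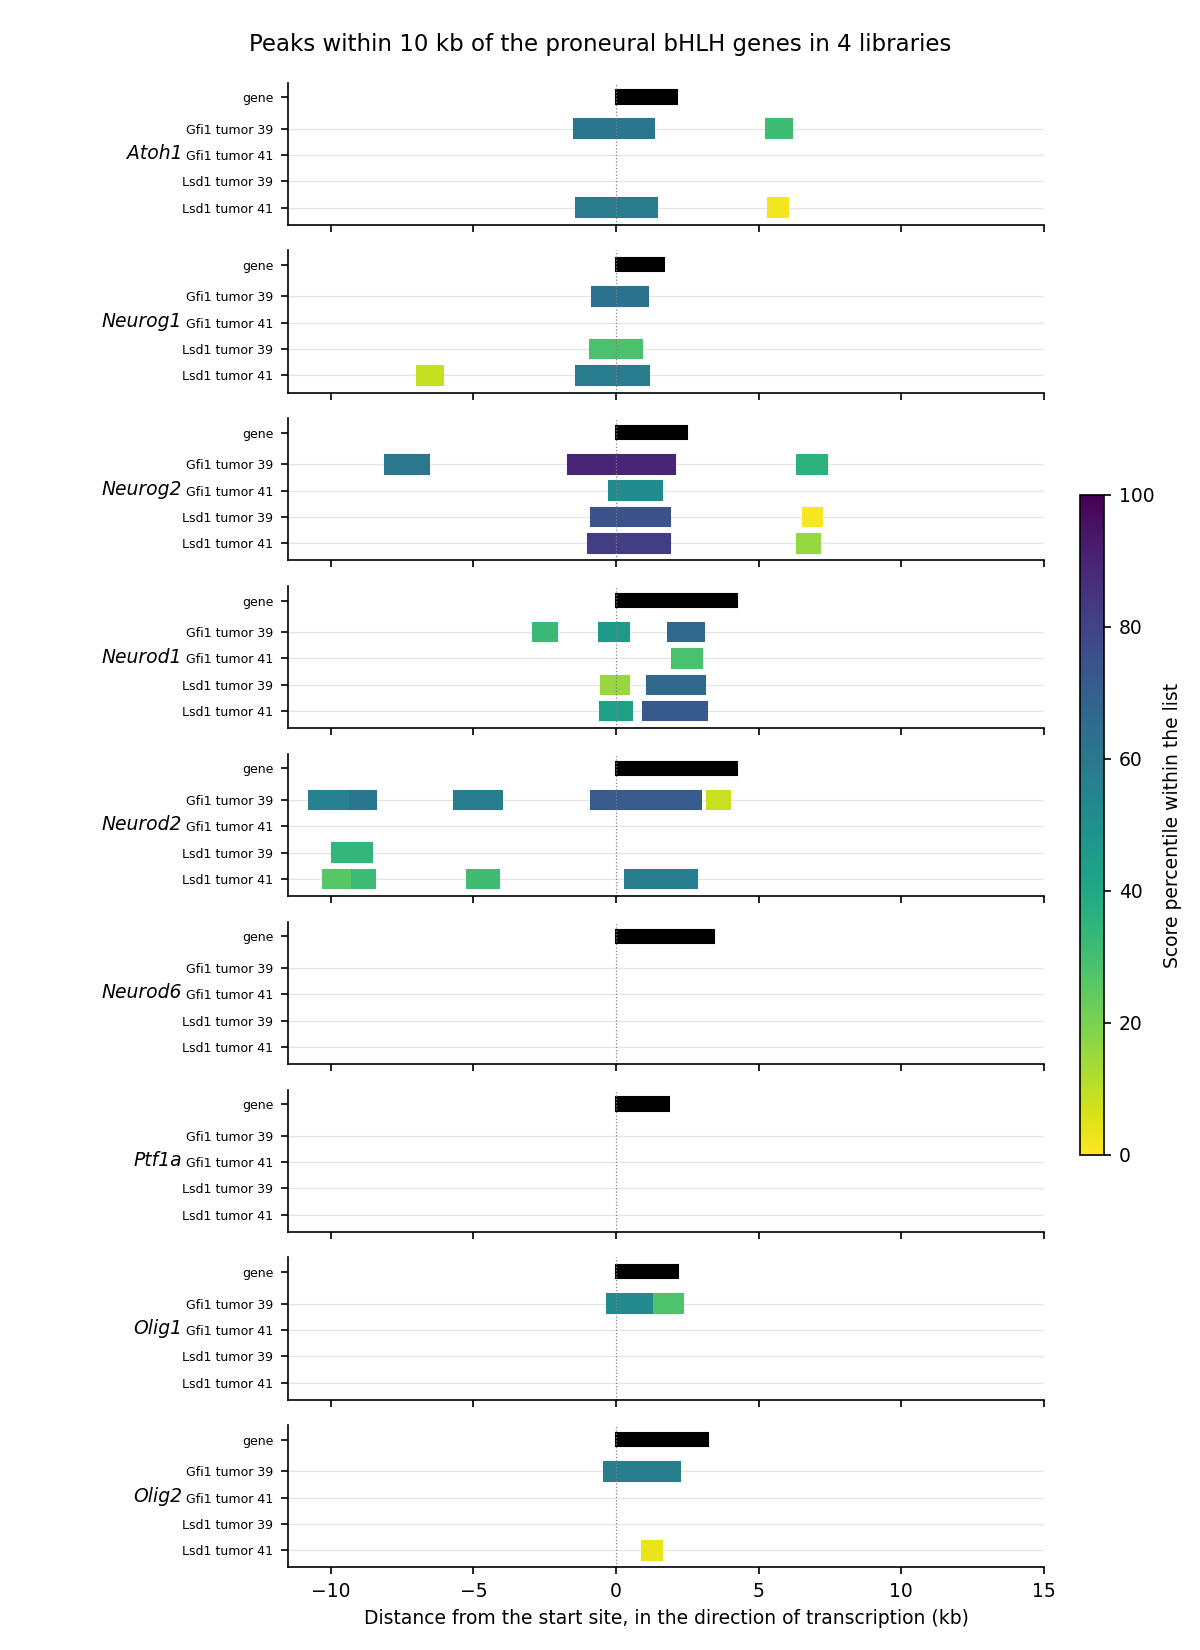
Peaks of the 4 libraries (rows in each panel, after the gene as a black bar) along the distance in kb from the TSS in the direction of transcription (x axis), coloured by score percentile within the list from yellow (0) to dark violet (100). Wide peaks over the start site are seen for Neurog2 in 4 libraries, Neurod1 has a peak in the gene body in all 4, and the panels of Neurod6 and Ptf1a are empty.

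The Neurod genes act after the determination factors, in differentiating neurons. Neurod1, which granule neurons need for survival and differentiation, lies at chr2:79452521-79456751 on the minus strand (ENSMUSG00000034701). It was the gene with the most reproducible peak away from the start. A site over its coding exon was 1259 bp wide at the 66.5 percentile for Gfi1 in tumor 39, 1030 bp at the 28.9 percentile for Gfi1 in tumor 41, 2046 bp at the 66.3 percentile for Lsd1 in tumor 39 and 2243 bp at the 71.9 percentile for Lsd1 in tumor 41. Gfi1 in tumor 41 was again the lowest, and its peak lay wholly inside those of the other lists. The promoter peaks ranked lower, with a peak of 1046 bp at the 45.9 percentile for Gfi1 in tumor 39, 1011 bp at the 15.4 percentile for Lsd1 in tumor 39, 1157 bp at the 42.9 percentile for Lsd1 in tumor 41, and none for Gfi1 in tumor 41. In each of the 3 lists that had both, the coding exon ranked above the promoter.

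Neither place belongs to Neurod1 alone. The promoter peaks also covered the TSS of Cerkl, a ceramide kinase-like gene, and the peaks over the coding exon covered the TSS of Gm26755, a long intergenic noncoding RNA of the opposite strand that starts inside Neurod1. The coding exon peak lay 1807 and 1972 bp from the TSS of Neurod1 for Gfi1 in tumors 39 and 41, 1068 bp for Lsd1 in tumor 39 and 933 bp for Lsd1 in tumor 41, where its greater width brought it under the limit of 1000 bp. With a window of 2500 bp, Neurod1 joined Neurog2 as a gene with a peak in all 4 lists. A Gfi1 peak of tumor 39 at the 32.1 percentile lay upstream of Neurod1 and 2024 bp from the TSS of Cerkl. A stretch of 300 bases of the coding exon inside the 4 peaks, chr2:79454223-79454522, read on the minus strand of GRCm38.p6, is shown because it is the place away from the TSS of Neurod1 that the 4 lists shared, with the E-box in capitals.
Neurod1 coding site: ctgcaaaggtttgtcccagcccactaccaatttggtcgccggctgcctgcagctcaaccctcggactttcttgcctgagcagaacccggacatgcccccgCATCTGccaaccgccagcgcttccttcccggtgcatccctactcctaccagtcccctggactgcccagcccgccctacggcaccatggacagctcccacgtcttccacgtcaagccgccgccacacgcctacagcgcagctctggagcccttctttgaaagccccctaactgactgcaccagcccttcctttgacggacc
It holds 1 CANNTG, no AATC and 17 CG dinucleotides.

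Neurod2, which acts in the maturation of neurons, had the most peaks of any of the genes, with 10. The gene lies at chr11:98325415-98329648 on the minus strand (ENSMUSG00000038255). At the start, Gfi1 of tumor 39 had a peak of 3860 bp, the widest of the 38, at the 70.8 percentile, and Lsd1 of tumor 41 had one of 2540 bp at the 57.9 percentile that ended 308 bp inside the TSS. Neither factor had a TSS peak in its other tumor. A site 4016 bp upstream was found in the same libraries, at the 57.1 percentile for Gfi1 and the 30.9 percentile for Lsd1. A site 8428 bp upstream was found in 3 lists. It was split in 2 peaks for Gfi1 in tumor 39 (60.6 and 55.9 percentiles) and for Lsd1 in tumor 41 (31.9 and 26.2), and was 1 peak at the 34.3 percentile for Lsd1 in tumor 39. The farther peak of each pair lay closer to the TSS of Ppp1r1b, a phosphatase inhibitor of striatal neurons, at 7995 bp for Gfi1 and 8486 bp for Lsd1. Gfi1 of tumor 41 had no peak in the window of Neurod2.

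Neurod6, a factor of cortical projection neurons at chr6:55677822-55681263 on the minus strand (ENSMUSG00000037984), had no peak in any list. It has 9 CG dinucleotides within 500 bp of its TSS, the 19.4 percentile, and in the lowest quintile of CpG content, to which it belongs, 95.3% of 4388 protein-coding genes had no TSS peak. The 300 bases upstream, chr6:55681264-55681563 read on the minus strand of GRCm38.p6, are given with CG in capitals.
Neurod6 upstream: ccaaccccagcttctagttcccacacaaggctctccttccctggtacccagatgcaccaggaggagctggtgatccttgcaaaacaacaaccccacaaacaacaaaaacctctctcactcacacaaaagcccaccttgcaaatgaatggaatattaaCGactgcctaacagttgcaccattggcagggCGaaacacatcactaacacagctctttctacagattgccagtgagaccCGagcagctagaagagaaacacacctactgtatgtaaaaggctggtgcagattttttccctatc
They hold 3 CG dinucleotides, 3 CANNTG and 2 AATC. Ptf1a and Neurod6 thus both lacked peaks, the former with a CpG-rich start and the latter with a CpG-poor one.

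Olig1 and Olig2 direct the oligodendrocyte lineage, and Olig2 also marks progenitors, among them those of motor neurons. They are neighbours, with start sites 44315 bp apart at chr16:91269772-91271933 (Olig1, ENSMUSG00000046160) and chr16:91225457-91228677 (Olig2, ENSMUSG00000039830), both on the plus strand. Olig2 had a TSS peak of 2664 bp at the 57.3 percentile for Gfi1 in tumor 39. In Lsd1 of tumor 41 it had a peak of 704 bp at the 3.19 percentile, which lay over the coding exon 913 bp from the TSS. Olig1 was found in Gfi1 of tumor 39 alone, with a TSS peak of 1599 bp at the 52.4 percentile and a neighbouring one of 999 bp at the 28 percentile over the 3′ end of the exon. A TSS peak in that list alone was seen for 3.56% of protein-coding genes and 4.83% of those with 1 TSS. The other lists held nothing for Olig1, and within the 41094 bp between the genes no list had a peak that touched neither of them.

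The pattern of 2 libraries was shared by several genes. Atoh1, Neurod2 and Olig2 (33.3% of the 9) had a TSS peak in Gfi1 of tumor 39 and Lsd1 of tumor 41 and not in the other lists, which was the case for 2.79% of protein-coding genes and 2.89% of those with 1 TSS. Neurog1 and Neurod1 (22.2%) had it in all lists but Gfi1 of tumor 41, against 4.24% and 3.99%. Of the 17 Gfi1 peaks of tumor 39 in the windows, 12 (70.6%) touched an Lsd1 peak of tumor 41, against 72.3% over that whole list, and 7 (41.2%) touched an Lsd1 peak of the same tumor, against 69%. The Gfi1 list of tumor 41 touched 2 of them (11.8%), against 56.2%. In bases, Gfi1 peaks covered 28293 in tumor 39 and 2879 in tumor 41, all of the latter inside the former, and Lsd1 peaks covered 9717 in tumor 39, of which 98.4% lay in the 19930 covered in tumor 41. Counted as peaks, 2 of 2 Gfi1 peaks of tumor 41 in these windows touched one of tumor 39, against 84.6% over the whole list. Of the Lsd1 peaks of tumor 39, 6 of 6 touched one of tumor 41, against 81.1%. The other way, 7 of 13 Lsd1 peaks of tumor 41 (53.8%) touched one of tumor 39, against 77.2%. Within tumor 41, 2 of 13 Lsd1 peaks (15.4%) touched a Gfi1 peak, against 62.6%, and 2 of 2 Gfi1 peaks touched an Lsd1 peak, against 88.9%. Such contact was thus common over the whole lists, for which the shares in bases were not computed. In these windows no base of the Gfi1 peaks of tumor 41 lay outside the peaks of Gfi1 in tumor 39.

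Most of these TSS peaks ranked below the median TSS peak of their list. Over the genes with a TSS peak, the median percentile of the highest one was 60.6 for Gfi1 in tumor 39 (7 genes), 52.2 for Gfi1 in tumor 41 (1 gene), 28.7 for Lsd1 in tumor 39 (3 genes) and 58.4 for Lsd1 in tumor 41 (6 genes). In Lsd1 of tumor 41 the value of Neurod1 was that of its coding exon peak (71.9) and not of its promoter peak (42.9). The medians over all protein-coding genes with a TSS peak were 82.5, 77.4, 79 and 81. They take the highest peak at any TSS of a gene. Neither they nor the shares in the upper 20% below were computed for genes with 1 TSS. In the order of the Gfi1 ranks in tumor 39, Neurog2 (89.7) came first, then Neurod2 (70.8), Neurog1 (62.3), Atoh1 (60.6), Olig2 (57.3), Olig1 (52.4) and Neurod1 (45.9). Without replicate values for 6 of the 7, the spread of this order is not known. Neurog2 alone had a TSS peak in the upper 20% of the score, in Gfi1 of tumor 39 and in Lsd1 of tumor 41, against 36.2% and 32.2% of protein-coding genes, and no gene had one in Gfi1 of tumor 41 or Lsd1 of tumor 39, against 24.6% and 28.1%. High-confidence peaks, which are those in the upper 20% in replicate 1 with at least 50% of their length in upper 20% peaks of replicate 2, were therefore at the TSS of 0 of the 9 genes for both Gfi1 and Lsd1. The rule gave 4387 Gfi1 and 5181 Lsd1 peaks in all, and the study's own lists of bound regions, which are longer and were drawn by enrichment, were not used here. The shares of protein-coding genes were 22.9% and 25.9%, and of those with 1 TSS they were 9.24% and 11.3%.

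Several of the peaks were wide for their rank. In Gfi1 of tumor 39, the peaks of Atoh1, Neurod2 and Neurog1 lay between the 60 and 80 percentiles of score and at the 87, 94.2 and 69.4 percentiles of width, and the median width percentile of the 4033 protein-coding genes with a TSS peak in that range of score was 64.7. Between 40 and 60, Olig2 was at the 85.1, Olig1 at the 56.8 and Neurod1 at the 28.2 percentile of width, beside a median of 43.9 over 1294 genes, so that the promoter peak of Neurod1 was the narrow one. In Lsd1 of tumor 41, Atoh1, Neurod2 and Neurog1 lay between 40 and 60 by score and at 81.9, 76.5 and 76.7 by width, beside a median of 46.7 over 1407 genes. Of the other 3 genes of that list, Olig2 was at 3.2 by width and 3.19 by score, Neurog2 at 82.4 and 82.2 and Neurod1 at 69.9 and 71.9. The median width percentiles in their ranges of score were 12.6, 84.2 and 64.5. Olig2 and Neurog2 thus lay below the median and Neurod1 above it. For Neurod1 this was the peak over the coding exon, and its promoter peak in that list was at 30 by width and 42.9 by score. The Lsd1 peaks of tumor 39 were at 76.3 for Neurog2, 52.1 for Neurog1 and 13.3 for Neurod1 by width, against 74.7, 28.7 and 15.4 by score. The median widths in their ranges of score were 64.8, 30.1 and 13.9. For Gfi1, Neurog2 was at 93.8 by width in tumor 39 and at 60.4 in tumor 41, beside medians of 83 and 48.3. These ranges of score were set after the values had been seen, and no test was run.

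Whether a peak recurred went with its rank in Gfi1 of tumor 39 across all protein-coding genes. Of the 1294 genes with a TSS peak between the 40 and 60 percentiles of that list, where Neurod1, Olig1 and Olig2 fell, 35.3% also had a TSS peak in Gfi1 of tumor 41, 58% in Lsd1 of tumor 39 and 78.8% in Lsd1 of tumor 41. Of the 4033 between 60 and 80, where Atoh1, Neurog1 and Neurod2 fell, the shares were 83.3%, 93.4% and 98.2%. Of the 7946 from 80 upward, where Neurog2 fell, they were 99.2%, 99.8% and 99.9%. None of Atoh1, Neurog1 and Neurod2 was found in Gfi1 of tumor 41 and 1 of them, Neurog1, in Lsd1 of tumor 39, whereas all 3 were in Lsd1 of tumor 41. Atoh1 (60.6) and Neurog1 (62.3) lay at the lower end of the range from 60 to 80, where the share of the whole range need not hold. The ranges also hold genes with several TSSs, whereas each of the 9 genes has 1. These shares describe genes that share 4 libraries, and what sets the recurrence was not tested.

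CpG content at the start also went with recurrence over all protein-coding genes. In the 5 quintiles from the lowest to the highest number of CG dinucleotides within 500 bp of the most 5′ TSS, 1.8%, 15.2%, 62.2%, 83.6% and 85.9% had a TSS peak in all 4 lists. The genes described here had 89 (Neurog1), 84 (Neurog2), 78 (Ptf1a), 76 (Olig1), 64 (Olig2), 60 (Atoh1), 49 (Neurod1), 40 (Neurod2) and 9 (Neurod6), where the median of protein-coding genes was 41. In the 2 highest quintiles, which held 6 of the 9 genes, peaks in 1 to 3 lists were seen for 13.6% and 12.7% of protein-coding genes. Of the 6 genes, Neurog2 was found in all 4 lists, Neurog1, Atoh1, Olig1 and Olig2 in 1 to 3, and Ptf1a in none. Quintiles 3, 4 and 5 held all of the 9 genes but Neurod6. In them, 82.9%, 97% and 98.5% of protein-coding genes had a peak in Gfi1 of tumor 39. For Lsd1 of tumor 41 the shares were 75.4%, 92.9% and 95.8%. In quintile 1, that of Neurod6, they were 3.14% and 3.49%. The 9 genes, Neurod6 among them, had 77.8% and 66.7%.

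**Figure D3:**
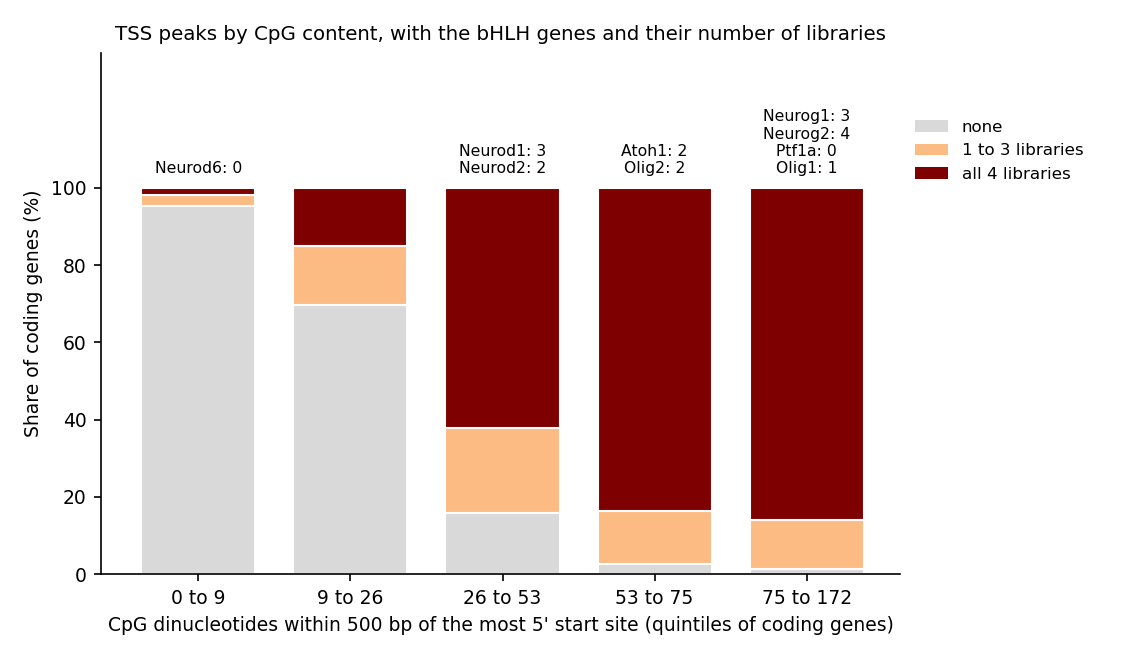
Share of protein-coding genes (y axis, %) with a peak at the most 5′ TSS in none, 1 to 3 or all 4 libraries, in quintiles of the number of CG dinucleotides within 500 bp (x axis), with the bHLH genes of each quintile written above their bar beside their number of libraries. The dark share rises from 1.8% to 85.9%, and the highest quintile holds both Neurog2 (4 libraries) and Ptf1a (0).

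The partners and inhibitors of the proneural proteins had TSS peaks in every library. Each of the 3 E protein genes, Tcf3, Tcf4 and Tcf12, had a TSS peak in all 4 lists, against 53.1% of protein-coding genes. The percentiles of Tcf3 were 99.9, 96.2, 99.5 and 98.4 in Gfi1 of tumors 39 and 41 and Lsd1 of tumors 39 and 41. High-confidence peaks lay at 2 of the 3 genes for Gfi1 and at 3 for Lsd1, against 22.9% and 25.9% of protein-coding genes. All 8 inhibitor genes (Id1 to Id4, Hes1, Hes5, Hey1 and Hey2) also had a TSS peak in all 4 lists, with medians of 96.4, 95.8, 95.5 and 97.4. Of the 8, 6 (75%) had a high-confidence peak for each factor, beside the same 22.9% and 25.9%. Id2 (98.6, 98.5, 98.8 and 99.2 in the same order of lists) and Hes1 (98.6, 97.5, 99.1 and 99.2) ranked near the top throughout. Id4, with 1 annotated transcript, was the lowest, at 77.8, 20.2, 60.9 and 83.6, and its Gfi1 rank in tumor 41 lay far under the other 3. Most of these genes have several transcripts, from 2 in Id1 to 62 in Tcf4, which gives them more start sites than the proneural genes have.

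Other bHLH genes of neurons were like the proneural ones in that few had a TSS peak in all 4 lists. Of 10 such genes, 5 had a TSS peak in Gfi1 of tumor 39, 2 in Gfi1 of tumor 41, 3 in Lsd1 of tumor 39 and 3 in Lsd1 of tumor 41. The shares of protein-coding genes were 65%, 54.3%, 58.5% and 61.7%, and of those with 1 TSS 36.9%, 25.1%, 29.4% and 32.6%. Some of the 10 genes have 1 annotated transcript and others have several. Hes6, which promotes neuronal differentiation, was the single gene of the 10 found in all 4 lists (10%, against 53.1%, and 24.2% of genes with 1 TSS). It was at the 95.7, 88, 95 and 97.6 percentiles and had a high-confidence peak of both factors. Nhlh1, which marks young postmitotic neurons, was absent from Gfi1 of tumor 39 and present in the other 3 libraries, at the 64.3, 26.8 and 72.2 percentiles. The number with no TSS peak in any list was 4 of the 10 (40%), against 33.6% of protein-coding genes and 61.7% of those with 1 TSS.

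**Figure D4:**
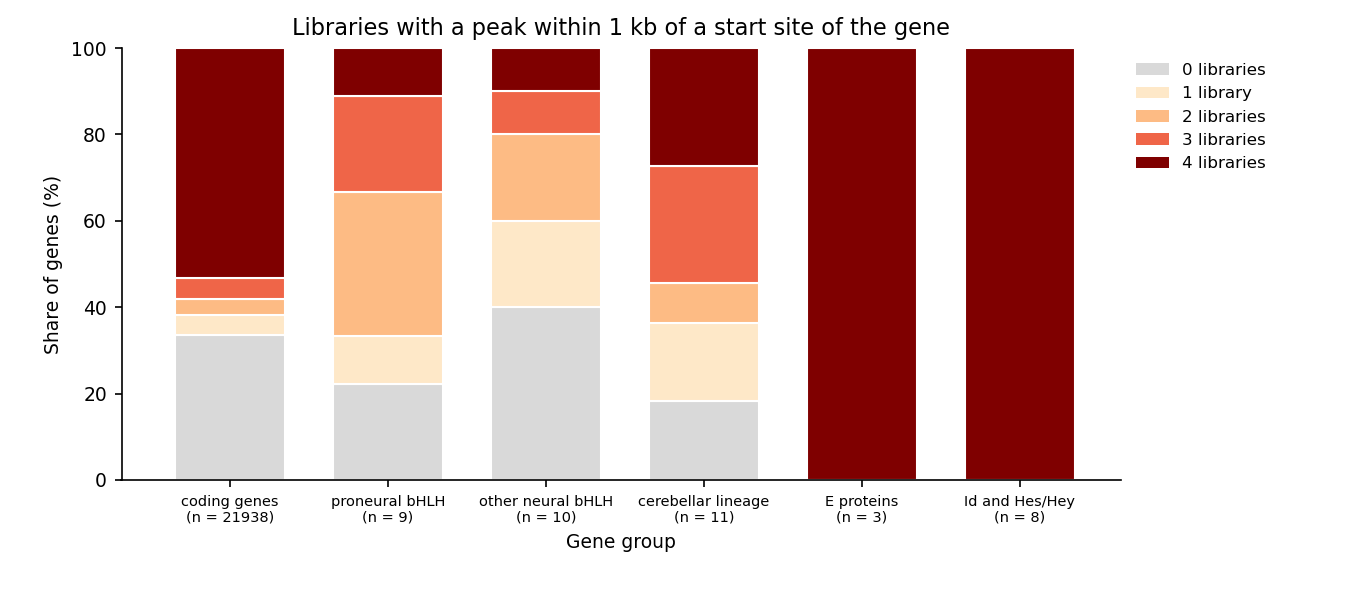
Share of genes (y axis, %) with a peak at a TSS in 0, 1, 2, 3 or 4 libraries, for protein-coding genes and 5 lists of genes (x axis, n under each bar). All E protein and Id, Hes and Hey genes are in 4 libraries, against 11.1% of the proneural bHLH genes and 53.1% of protein-coding genes.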

How the data were processed

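Chromatin of 2 MG tumors was immunoprecipitated for Gfi1 and for Lsd1, and the 4 peak lists were used as deposited. The authors aligned the reads to mm10 (BWA 0.6.2, per the labels), removed duplicate reads and ran MACS with its default settings on each library and input. The MACS version is not given in the sources used here. The deposited lists give a position and a score, and what the score measures is not given in the sources used here. It was at least 50.0 in each list and was used for ranks within a list, with ties at their mid rank. Precision per peak could not be given, since the lists hold no reads.

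TSSs came from GENCODE M21 for GRCm38, the build of mm10, whereas the study used an earlier release. Peaks within 1000 bp of a TSS were counted for it. Sequences were read from the RefSeq assembly GRCm38.p6, in which 9 of 9 start codons read ATG. Motifs were searched on both strands. Python 3.11.15, numpy 2.4.6, scipy 1.17.1, pysam 0.24.0 and matplotlib 3.10.9 were used, and the overlap steps were tested on simulated data.

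The 9 genes, the gene lists and the rule for naming genes (values for all 9, for at most the 3 highest and 3 lowest of each other list, and for a gene whose TSS is nearest to a peak) were chosen with earlier results of these data known. The values of 1 gene of these lists are not reported here. Replicates 1 and 2 are tumors 39 and 41. The TSS window, score cutoff, overlap, flank, rank measure and libraries were varied. The variations of the count of genes in 1 to 3 libraries and the backgrounds of genes with 1 TSS and of genes of like score were added after seeing the data.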

Additional observations from a re-analysis of the deposited data

Results flagged for a closer look

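The order of the factors at these genes was not the same in the tumors. At Neurog2 the percentile of the highest TSS peak was higher for Gfi1 than for Lsd1 by 15 in tumor 39 (89.7 against 74.7), and the difference was -30 in tumor 41 (52.2 against 82.2). The number of the 9 genes with a TSS peak was higher for Gfi1 than for Lsd1 by 4 in tumor 39 (7 against 3), and the difference was -5 in tumor 41 (1 against 6). Over all protein-coding genes the same difference was 1419 in tumor 39 (14258 against 12839) and -1640 in tumor 41 (11902 against 13542). Each value rests on 1 library per factor and tumor, so the difference between the tumors was not tested, and tumor and library cannot be told apart.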

How the results depend on the processing

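No paired analysis was possible because no value comes from a test, although the libraries are paired by tumor. Of 70 alternative values, 21 moved by over 1.5 times (counts) or by more than the SD of the medians of the 2 tumors (percentiles), and 49 did not. A TSS window of 2500 bp gave 2 genes with Gfi1 at the TSS in both tumors and 2 in all 4 libraries, Neurod1 being added. In the upper 20% of the score, the numbers were 0 for Gfi1 in both tumors, 0 for Lsd1 in both, 0 for all 4 libraries and 1 for 1 to 3 libraries. In the upper 50%, Lsd1 was at 1 gene in both tumors. High-confidence Lsd1 peaks lay at 1 gene with the upper 40% and at 3 with no cutoff, and those of Gfi1 lay at 0 genes in both settings. The windows held 23 peaks without a flank and 76 with 50 kb. Ranking by width gave medians of 85.1 and 60.4 for Gfi1 and of 52.1 and 76.6 for Lsd1 (tumors 39 and 41), against 60.6, 52.2, 28.7 and 58.4 by score. Leaving out 1 library of a factor turned its count for both tumors into the count of its remaining list, already given above. This was 1 or 7 genes for Gfi1 (7 without tumor 41) and 3 or 6 for Lsd1 (6 without tumor 39). The high-confidence count likewise became that of upper 20% peaks in the remaining list, 0 or 1 for each factor. Leaving out each library in turn gave 1 to 3 genes for all remaining libraries, 4 to 6 for some of them, and 21 to 36 peaks. The lists hold no read counts, so the absence of a peak is no measure of how much signal lay there, and the part that depth has in it was not tested.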

Other observations

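Genes of the cerebellar lineages that the proneural genes drive had more TSS peaks in the longer list of each factor, as did protein-coding genes at large. Of 11 such genes, 9 had a TSS peak in Gfi1 of tumor 39, 4 in Gfi1 of tumor 41, 5 in Lsd1 of tumor 39 and 7 in Lsd1 of tumor 41, beside 65%, 54.3%, 58.5% and 61.7% of protein-coding genes. The number with a high-confidence peak was 0 for Gfi1 and 0 for Lsd1, beside 22.9% and 25.9%. Lhx1, of Purkinje cell precursors, was in all 4 lists, at the 88.9, 58.5, 68.9 and 75.5 percentiles in the order Gfi1 of tumors 39 and 41 and Lsd1 of tumors 39 and 41. Barhl1, of granule neurons downstream of Atoh1, was at 73, 33.3, 80.1 and 78.9. Skor2, of Purkinje cells, and Gabra6, of mature granule neurons, had a TSS peak in none.

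Marker genes are read beside the 65%, 54.3%, 58.5% and 61.7% of protein-coding genes with a TSS peak in the same order of lists. The 5 of neural stem and progenitor cells (Prom1, Nes, Sox2, Vim and Msi1) had 5, 2, 4 and 5 TSS peaks. The 5 of oligodendrocytes had 3, 2, 2 and 3, the 5 of microglia and blood had 1, 0, 1 and 1, the gene being Spi1, and the 5 of endothelium had 2, 0, 0 and 1. Ptprc, Csf1r, Cx3cr1 and Itgam had none. A TSS peak of Gfi1 or Lsd1 is not expression, so these counts do not give the cells in the tumors.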
